A study of Mus musculus with 12 samples.

Results

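The miRNAs of the miR-297, miR-466, miR-467 and miR-669 families, most of which are encoded in a cluster inside the gene Sfmbt2, were examined in the mouse thymus. The members were all mouse identifiers of these families in the miRNA table, 71 of 2006 miRNAs, and they were set beside the mRNA of the host gene. Small RNA and ribosomal RNA-depleted, strand-specific RNA were sequenced from the whole thymus of male, wild type C57BL/6 mice at 2 weeks (2W), 6 weeks (6W) and 3 months (3M), with 2 biological replicates and so 2 libraries of each kind per age. No group had been treated or carried an introduced allele. Neither the labels nor the methods say whether a replicate was 1 animal, and p-values therefore measure only the spread between these libraries. Whole tissue was sequenced, so that a smaller number of cells of one type and less RNA per cell cannot be told apart.

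miRNAs are cut from hairpin precursors by Drosha and Dicer, and each hairpin can give a product from its 5′ arm (5p) and another from its 3′ arm (3p). Bases 2 to 8 of the product, the seed, lead the pairing with target mRNAs. The cluster in Sfmbt2 is a large array of related hairpins in an intron of a Polycomb group gene. Sfmbt2 is imprinted and expressed from the paternal allele in early embryos and the placenta, where the cluster is best known.

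RefSeq (GRCm38.p6) lists 82 precursors of the 4 families, of which 72 lie inside Sfmbt2 on chromosome 2 (10370440 to 10595253) and 10 lie elsewhere. The 72 precursors fill a stretch of 51.6 kb, from 10466663 to 10518279, which starts 96.2 kb after the start of the gene. They comprise 29 precursors of miR-669, 24 of miR-466, 14 of miR-467 and 5 of miR-297. Neighbouring precursors start a median of 296 bases apart. The order miR-467, miR-466, miR-669 occurs 12 times in a row of precursors, with a median of 2452 bases from one such run to the next. The table used here gives no exon positions, so that the intron itself was not checked. Of the 71 members, 61 have precursors inside Sfmbt2 alone, 5 have precursors both inside and elsewhere, and 5 (miR-466i-3p, miR-466i-5p, miR-466j, miR-466k and miR-466q) have precursors only on other chromosomes.

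**Figure D1:**
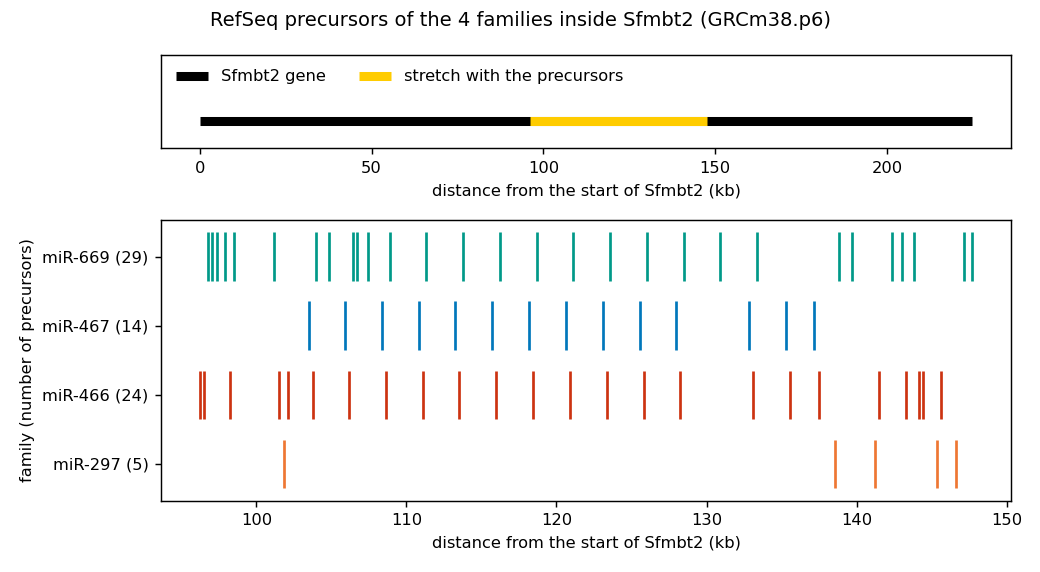
The upper panel shows the Sfmbt2 gene (black) and the stretch that holds the precursors (yellow) by distance from the start of the gene in kb. The lower panel shows each of the 72 precursors as a vertical line, by family, where miR-467, miR-466 and miR-669 lines recur at regular steps and the 5 miR-297 lines lie near the ends.

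The sequences of the 10 most abundant members and of the 3 that passed the study threshold in a comparison are shown because the results below turn on them. They are printed as the miRNA table lists them, 5′ to 3′ with T for U, and capitals mark the seed.

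miR-467a-5p: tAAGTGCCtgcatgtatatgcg
miR-467b-5p: gTAAGTGCctgcatgtatatg
miR-669c-5p: aTAGTTGTgtgtggatgtgtgt
miR-466b-3p: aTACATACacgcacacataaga
miR-466c-3p: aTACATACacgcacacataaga
miR-466p-3p: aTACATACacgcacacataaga
miR-466a-3p: tATACATAcacgcacacataaga
miR-466e-3p: tATACATAcacgcacacataaga
miR-669a-3p: aCATAACAtacacacacacgtat
miR-669o-3p: aCATAACAtacacacacacgtat
miR-466f-3p: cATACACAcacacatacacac
miR-466i-3p: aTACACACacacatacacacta
miR-466h-3p: tACGCACGcacacacacac

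A further 4 members, chosen after their values were seen, show the opposite arms of abundant hairpins, an end of the range of base content and a seed shared across families.

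miR-669a-5p: aGTTGTGTgtgcatgttcatgtct
miR-467a-3p: cATATACAtacacacacctaca
miR-466i-5p: tGTGTGTGtgtgtgtgtgtg
miR-297a-3p: tATACATAcacacatacccata

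The 5p members are rich in G and T and the 3p members in A and C. The share of A and C had a median of 28.2% over the 32 members named 5p, with a range of 0% to 40.9%, and a median of 77.3% over the 33 named 3p, with a range of 59.1% to 90.5%. The other 6 members are named without an arm. The letters ACACAC or TGTGTG were found in the listed sequence of 54 of the 71 members (76.1%), against 104 of all 2006 miRNAs (5.18%), members included. Such repeats are a description of the letters, since the families themselves were chosen by name.

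The 71 members hold 37 different seeds, of which 13 are shared by more than 1 member. The seed ATACATA is listed for 7 members from 3 families: miR-466a-3p, miR-466d-3p, miR-466e-3p, miR-297a-3p, miR-297b-3p, miR-297c-3p and miR-669d-3p. The seed TATACAT is also listed for 7, all 3p members of miR-467 and miR-669. The 5p seed GTTGTGT is listed for 4 members of miR-669, among them miR-669a-5p. The most abundant member, miR-467a-5p, is alone in the cluster with the seed AAGTGCC, which 1 other mouse miRNA of the table, miR-292a-3p of a cluster known from embryonic stem cells, also has. miR-467b-5p starts 1 base earlier, so that its seed, TAAGTGC, is offset by that base.

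Many members could not be told apart by their reads. The 71 members are listed with 62 different sequences, and 30 of them fall into 12 sets in which members share a run of at least 18 bases and have counts within 10% or 5 counts of a neighbour in the set in every library. miR-467a-5p and miR-467b-5p form such a set with 7041 and 7003 counts in 2W replicate 1, and miR-466a-3p, miR-466b-3p, miR-466c-3p, miR-466e-3p and miR-466p-3p form another. At low counts the tolerance of 5 also joins members whose reads differ. An example is miR-669d-3p, with 4 counts in 3M replicate 1, and miR-669l-3p, with 0 there and 3 in 2W replicate 1. Taking each set once, by its most abundant member, leaves 53 entries, and the sums below were made over these. The count of each member within a set, and the hairpin it came from, are therefore uncertain: miR-467a has 10 precursors in Sfmbt2, miR-669a 12 and miR-466b 8.

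The members took a small part of the miRNA counts at every age. As listed, they held 0.327% and 0.288% of all miRNA counts in the 2 libraries at 2W, 0.317% and 0.341% at 6W, and 0.283% and 0.326% at 3M. As listed, the ranges of the ages overlapped. With shared reads taken once, the shares were 0.150% and 0.145% at 2W, 0.154% and 0.172% at 6W, and 0.142% and 0.159% at 3M. On this measure both 6W libraries were above both 2W libraries, and 3M overlapped both ages. The totals of the miRNA table were 9181478 to 10994118 counts per library, and 3 counts correspond to 0.271 to 0.329 counts per 1000000 (CPM, scaled by the TMM factors of edgeR).

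Most members were counted at low levels. A mean over the 6 libraries of at least 100 CPM was found for 8 members, of 10 to under 100 CPM for 12, of 1 to under 10 CPM for 27 and of under 1 CPM for 24. A filter on low counts (filterByExpr of edgeR, by age) left 50 members among 822 miRNAs, or 37 entries with shared reads taken once. The median of the 50 was 6.79 CPM, and that of the 822 was 9.48 CPM. The 21 members that did not pass had 2 to 37 counts over the 6 libraries, with a median of 12.

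The set of miR-467a-5p and miR-467b-5p was by far the most abundant entry. These 2 members, with nearly the same counts, had ranks 88 and 89 of the 822 tested miRNAs by mean CPM (811 and 806 CPM). miR-467a-5p, which stands for the set, was counted at 675 and 849 CPM at 2W, at 863 and 1057 CPM at 6W, and at 611 and 814 CPM at 3M. Both libraries at 6W lay above those of the other ages. The mean was 762 ± 123 CPM at 2W, 960 ± 137 CPM at 6W and 712 ± 143 CPM at 3M (SD, n = 2). This one entry made up 43.4% to 61.2% of the summed CPM of the 53 entries.

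The set led by miR-466b-3p followed at rank 163. Its libraries were at 223 and 103 CPM at 2W, at 156 and 120 CPM at 6W, and at 143 and 165 CPM at 3M. The 2W libraries were the highest and the lowest of the 6 and enclosed the other ages. miR-669c-5p, whose only precursor is Mir669c, was at 99.3 and 109 CPM at 2W, at 110 and 130 CPM at 6W, and at 136 and 124 CPM at 3M. Its lowest values were those at 2W.

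miR-669a-3p, listed with the same sequence and counts as miR-669o-3p, was at 89.4 and 55.6 CPM at 2W, at 65.4 and 56.0 CPM at 6W, and at 101 and 91.1 CPM at 3M. Both libraries at 3M were above the other 4. The opposite arm, miR-669a-5p, was at 47.3 and 73.9 CPM at 2W, at 60.7 and 76.4 CPM at 6W, and at 62.4 and 61.6 CPM at 3M. The 3M libraries of this arm lay within the range of each other age.

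**Figure D2:**
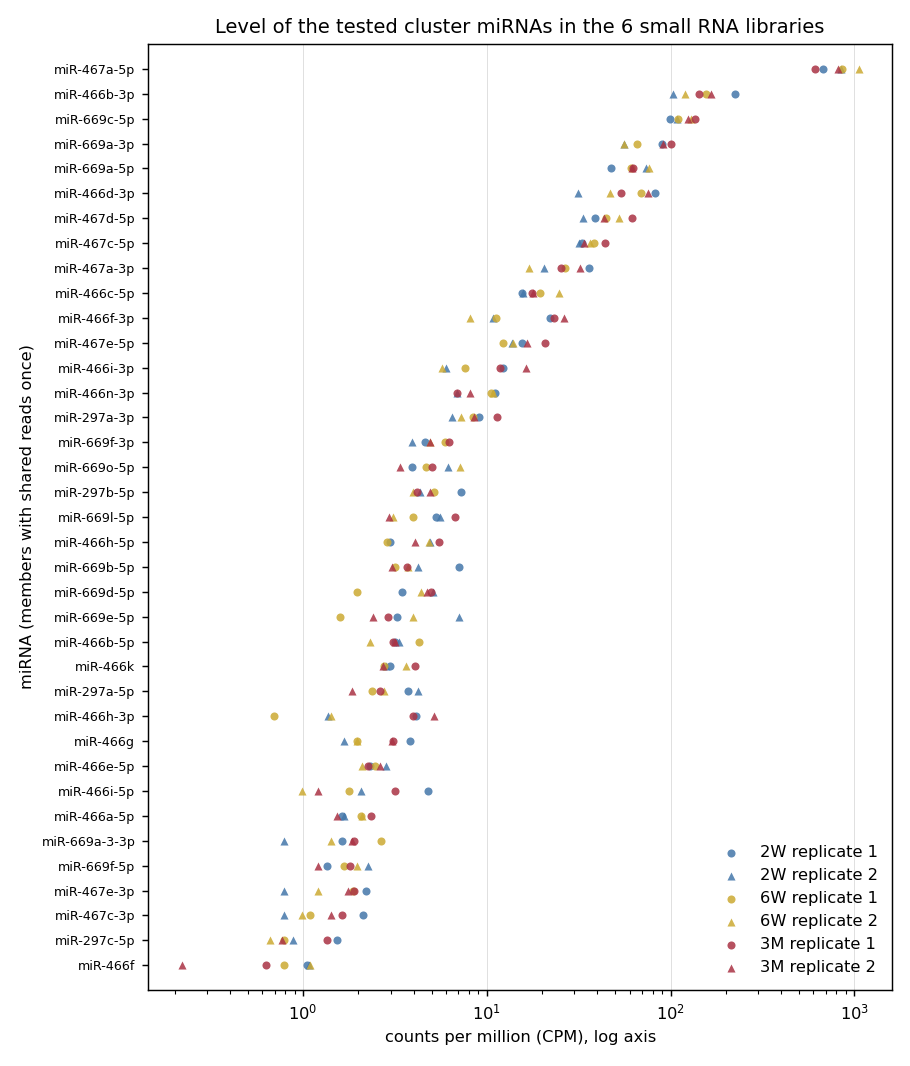
Each row is 1 of the 37 tested entries with shared reads taken once, and the horizontal axis gives counts per 1000000 on a log scale. Colours stand for age, circles for replicate 1 and triangles for replicate 2, and the 2 points of 2W are the outermost of the 6 for miR-466b-3p.

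The arms of a hairpin differed in amount, and not in the same direction in every family. Of the 18 hairpins whose arms both passed the filter on low counts, 4 had more 5p than 3p product in all 6 libraries, 12 had less in all 6, and 2 (miR-669a and miR-466h) had ratios on both sides of 1. These ratios are not independent, because hairpins share 3p counts. Among the 12, miR-466a, miR-466b, miR-466c, miR-466e and miR-466p all use the set of miR-466b-3p. miR-297a, miR-297b and miR-297c use that of miR-297a-3p. For miR-467a the 5p product was 18.7 to 62.2 times the 3p product over the 6 libraries, and for miR-467c it was 15.6 to 40.6 times. For miR-466b the 5p product was only 0.0142 to 0.0323 times the 3p product, and for miR-466c 0.0701 to 0.205 times, but the 3p counts of both are those of 1 set shared by 5 members. The 2 arms of miR-669a were closer to each other, with ratios of 0.529 to 1.36, as were those of miR-466h (0.721 to 4.14) and of miR-467d (1.07 to 3.10), whose 3p product shares its counts with miR-467a-3p. miR-669o-5p had 0.0372 to 0.127 times the counts of miR-669o-3p, but the latter shares its counts with miR-669a-3p.

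Libraries of the same age differed by arm. At 2W, all 13 tested 3p entries were higher in replicate 1 than in replicate 2, by a median of 0.98 on the log2 scale (with 0.5 added to each CPM) and a range of 0.21 to 1.38. Of the 21 tested 5p entries, 7 were higher in replicate 1 and 14 in replicate 2, with a median of -0.08. At 6W, 11 of the 13 3p entries were higher in replicate 1, with a median of 0.38, and 14 of the 21 5p entries were higher in replicate 2, with a median of -0.18. At 3M the medians of both arms had the opposite sign, but the 3p entries were split. Of these, 6 were higher in replicate 1 and 7 in replicate 2, with a median of -0.18 and a range of -0.48 to 0.40. Of the 21 5p entries, 16 were higher in replicate 1, with a median of 0.32.

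Over the 772 tested miRNAs outside the cluster, the same difference had a median of 0.01 at 2W, 0.02 at 6W and 0.02 at 3M. The 54 of them with at least 65% A and C had medians of 0.11 at 2W, 0.07 at 6W and -0.16 at 3M. The 124 of them with at most 35% A and C had medians of -0.02, -0.06 and 0.05. The signs in these groups were those of the 3p and 5p members, and the sizes were smaller. The single miRNAs varied widely, from -1.77 to 1.67 at 2W among the 54. Of these, 30 were higher in replicate 1 at 2W, 30 at 6W and 20 at 3M. Of the 124, it was 57, 53 and 69. The member with 0% A and C, miR-466i-5p, was higher in replicate 1 at every age (1.05, 0.62 and 1.10), unlike most 5p entries at 2W and 6W. Arm and base content go together in the cluster and cannot be told apart, and the part of base content was not tested.

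**Figure D3:**
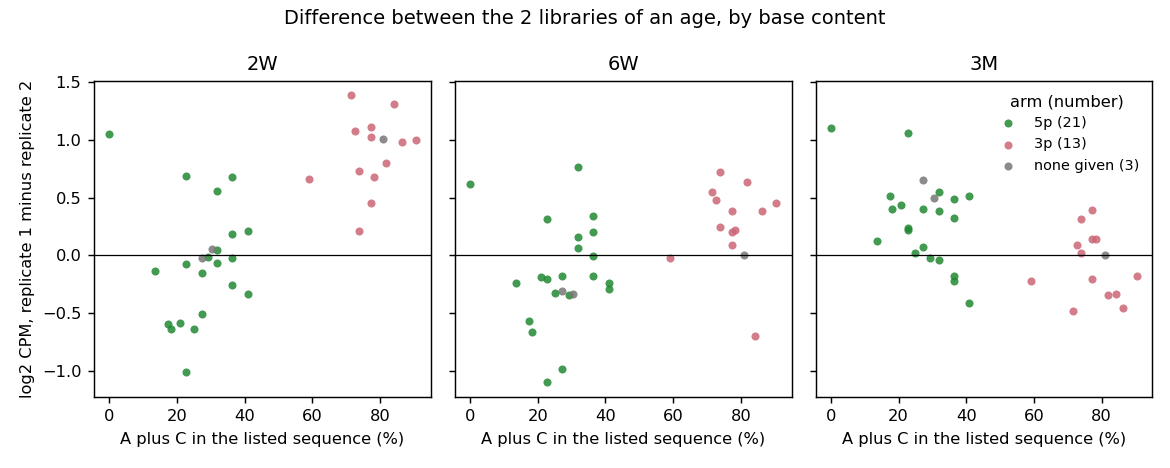
The 3 panels show, for each age, the log2 difference in CPM between replicate 1 and replicate 2 against the share of A and C in the listed sequence, for the 37 tested entries coloured by arm. At 2W the 3p entries all lie above 0, and at 3M they lie on both sides of it.

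The libraries of an age also differed in the sums of the arms over the 53 entries. The 3p entries added up to 503 and 250 CPM at 2W, to 368 and 283 CPM at 6W, and to 395 and 441 CPM at 3M. The 5p entries added up to 977 and 1182 CPM at 2W, to 1188 and 1436 CPM at 6W, and to 1005 and 1150 CPM at 3M. The ratio of 3p to 5p was 0.515 and 0.212 at 2W, 0.310 and 0.197 at 6W, and 0.393 and 0.383 at 3M, so that the 2W libraries enclosed all the others but one. At 3M the summed 5p level was higher in replicate 2, although 16 of the 21 tested 5p entries were higher in replicate 1. The summed 5p level was 1080 ± 145 CPM at 2W, 1312 ± 175 CPM at 6W and 1078 ± 103 CPM at 3M (SD, n = 2). Both orders differed without the single entry miR-467a-5p. The other 5p entries added up to 302 and 333 CPM at 2W, to 326 and 379 CPM at 6W, and to 394 and 337 CPM at 3M. Their means were then 318 ± 21.9 CPM at 2W, 352 ± 37.7 CPM at 6W and 365 ± 40.3 CPM at 3M (SD, n = 2), highest at 3M and not at 6W, and the libraries of 6W and 3M overlapped. Without this entry the ratio of 3p to 5p was 1.66 and 0.751 in the libraries of 2W and 1.13 and 0.746 in those of 6W, and at 3M its mean was 1.16 ± 0.217 (SD, n = 2), with replicate 2 the higher, at 1.31.

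The comparison of 6W with 2W asks how the cluster stood between the young and the grown thymus. Of the 50 tested members, 1 passed the threshold of the study (unadjusted p under 0.05 and absolute log2 fold change over 1, here in the quasi-likelihood test of edgeR), which is 2.00%. Over all 822 miRNAs 15.0% passed it. With an adjusted p under 0.05, 0 members were called by edgeR and 0 by DESeq2, against 8.64% and 10.5% of all tested miRNAs. An unadjusted p under 0.05 in edgeR was found for 1 member (2.00%), against 27.6% of all tested miRNAs. The median log2 fold change was -0.11 over the members and -0.13 over all tested miRNAs. Libraries at 2W and 6W were fully separated for 14 of the 50 members (28.0%) and for 56.6% of all tested miRNAs.

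The member past the threshold was miR-466h-3p, from the single precursor Mir466h in Sfmbt2. It was counted at 4.12 and 1.37 CPM at 2W and at 0.69 and 1.42 CPM at 6W, from 43, 14, 7 and 13 counts. The ages overlapped, since the second 2W library lay between the 6W libraries. The log2 fold change was -1.39 (SE 0.60, 95% interval -2.72 to -0.05), with an edgeR adjusted p of 0.168. Without 2W replicate 1 the log2 fold change was -0.28, without 6W replicate 1 -0.94 and without 3M replicate 2 -1.21, and none of these passed the threshold. Nor did the fits by DESeq2 (-1.28), of only the 4 libraries compared (-1.30) or with a block for the replicate number (-1.35). Without 2W replicate 2, 4 of 51 tested members passed it (7.84%), namely miR-466f-3p, miR-466h-3p, miR-466i-5p and miR-669b-5p, against 13.3% of all miRNAs tested in that fit.

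No abundant member passed the test. miR-467a-5p had a log2 fold change of 0.33 (95% interval -0.18 to 0.85, edgeR adjusted p of 0.388). For miR-466b-3p it was -0.24 (95% interval -0.98 to 0.50, edgeR adjusted p of 0.697). For miR-669c-5p it was 0.21 (95% interval -0.26 to 0.68, edgeR adjusted p of 0.581). For miR-669a-3p it was -0.26 (95% interval -0.84 to 0.33, edgeR adjusted p of 0.583).

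The comparison of 3M with 6W asks how the cluster stood as the thymus began to shrink. Of the 50 members, 3 passed the threshold (6.00%), all higher at 3M, against 7.42% of all tested miRNAs in either direction and 4.50% in the upward direction. With an adjusted p under 0.05, 0 members were called by edgeR and 1 by DESeq2, against 0.852% and 5.35% of all tested miRNAs. An unadjusted p under 0.05 in edgeR was found for 5 of the 50 members (10%), against 148 of all 822 tested miRNAs (18%). The median log2 fold change was 0.13 over the members and 0.02 over all tested miRNAs. By arm, with shared reads taken once, it was 0.35 over the 13 3p entries, of which 11 were above 0, and -0.01 over the 21 5p entries, of which 10 were above 0. Of all 822 tested miRNAs, 423 were above 0. Libraries at 6W and 3M were fully separated for 18 of the 50 members (36.0%) and for 50.1% of all tested miRNAs.

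miR-466f-3p was at 11.3 and 8.11 CPM at 6W and at 23.3 and 26.4 CPM at 3M, after 22.0 and 10.8 CPM at 2W. Both 3M libraries were above both 6W libraries, and the first 2W library was close to 3M. The log2 fold change was 1.35 (SE 0.34, 95% interval 0.60 to 2.11), with an edgeR adjusted p of 0.0849. DESeq2 gave 1.34 with an adjusted p of 0.00798. This miRNA has 3 precursors in Sfmbt2 and 1 on chromosome 13.

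miR-466h-3p was at 3.97 and 5.13 CPM at 3M, above both 6W libraries. Its log2 fold change was 2.10 (SE 0.58, 95% interval 0.81 to 3.40), with an edgeR adjusted p of 0.0976, and DESeq2 gave 2.09 without an adjusted p. miR-466i-3p, whose only precursor in RefSeq is on chromosome 13 and not in Sfmbt2, was at 7.61 and 5.70 CPM at 6W and at 11.7 and 16.3 CPM at 3M, after 12.3 and 5.98 CPM at 2W. The 3M libraries were above both 6W libraries and overlapped those at 2W. The log2 fold change was 1.07 (SE 0.36, 95% interval 0.25 to 1.88), with an edgeR adjusted p of 0.160. Its listed sequence shares with that of miR-466f-3p a run longer than the shortest run required above for a set. It starts a base later, so that the seeds, ATACACA for miR-466f-3p and TACACAC for miR-466i-3p, are offset. The members were kept apart because their counts differed, with 258 and 130 in 3M replicate 1. Whether they share reads was not tested, and the precursor behind each of these calls is therefore uncertain.

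The 3 members past the threshold have the largest shares of A and C among the 50 tested members, 90.5% for miR-466f-3p, 86.4% for miR-466i-3p and 84.2% for miR-466h-3p, which was seen after the test. Outside the cluster, 6 tested miRNAs have the letters ACACAC in their listed sequence, with log2 fold changes of -1.17 to 1.63, of which 4 were above 0. A pair of them was chosen after the values were seen. One of these, miR-574-3p with 81.8% A and C, was at 17.1 and 16.7 CPM at 6W and at 29.0 and 28.9 CPM at 3M, with a log2 fold change of 0.78 and an edgeR adjusted p of 0.0908. Another, miR-329-3p with 68.2% A and C, had a log2 fold change of -1.17 and an edgeR adjusted p of 0.137. The part of base content in the difference between 6W and 3M was not tested.

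Leaving out single libraries touched the 3 calls unequally. The log2 fold change of miR-466f-3p was between 1.14 and 1.60 and that of miR-466h-3p between 1.65 and 2.70, and both passed the threshold without any 1 of the 6 libraries. That of miR-466i-3p was between 0.78 and 1.29 and did not pass without 3M replicate 2 (0.78) or without 6W replicate 2 (0.88). 3M replicate 2 also stood apart in red blood cell RNA: miR-451a, which red blood cells hold in large amounts and which was chosen after its values were seen, was at 606 CPM there and at 161 to 257 CPM in the other 5 small RNA libraries. miR-466f-3p and miR-466h-3p had log2 fold changes of 1.22 and 1.86 without that library.

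Among the abundant members, miR-669a-3p had a log2 fold change of 0.66 (95% interval 0.08 to 1.24, edgeR adjusted p of 0.227). For miR-467a-5p it was -0.43 (95% interval -0.95 to 0.09, edgeR adjusted p of 0.348). For miR-466b-3p it was 0.16 (95% interval -0.58 to 0.90, edgeR adjusted p of 0.858). None of these passed the study threshold or had an adjusted p under 0.05. The interval of miR-669a-3p lay above 0, and its unadjusted p of 0.0303 is among the 5 counted under 0.05.

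The comparison of 3M with 2W, which shares its libraries with the other comparisons, gave the smallest number of calls in the cluster. Past the threshold were 0 of the 50 members in edgeR and in DESeq2, against 26.3% of all tested miRNAs in edgeR. With an adjusted p under 0.05, edgeR and DESeq2 each called 0 members, against 29.9% and 28.0% of the miRNAs. An unadjusted p under 0.05 in edgeR was found for 0 members, against 41.4% of all tested miRNAs. The median log2 fold change was 0.03 over the members and -0.12 over all tested miRNAs. A log2 fold change within 0.5 of 0 was found for 39 of the 50 members and for 333 of all 822 tested miRNAs. By arm, with shared reads taken once, the median was 0.36 over the 13 3p entries, of which 11 were above 0, and -0.08 over the 21 5p entries, of which 9 were above 0. Of all 822 tested miRNAs, 369 were above 0. Libraries at 2W and 3M were fully separated for 16 of the 50 members (32.0%) and for 65.1% of all tested miRNAs. miR-467a-5p had a log2 fold change of -0.10 (95% interval -0.61 to 0.42) and miR-669c-5p of 0.32 (95% interval -0.15 to 0.79).

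This count depended on 2W replicate 1, in which the 3p members were high. Without that library 5 of 51 tested members passed the threshold, miR-466d-3p, miR-466f-3p, miR-466h-3p and miR-466i-3p upward and miR-669e-5p downward, and 6 had an edgeR adjusted p under 0.05. These are 9.80% and 11.8% of the members, against 24.7% and 22.5% of all miRNAs tested in that fit. The log2 fold changes were then 1.10 for miR-466d-3p, 1.27 for miR-466f-3p, 1.78 for miR-466h-3p and 1.29 for miR-466i-3p, with 1 library left at 2W that is assumed to vary like the other ages. Without 2W replicate 2, miR-669b-5p passed it alone, with -1.07, against 24.2% of all miRNAs, and without 3M replicate 1, miR-297a-5p did, with -1.10, against 22.9%.

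**Figure D4:**
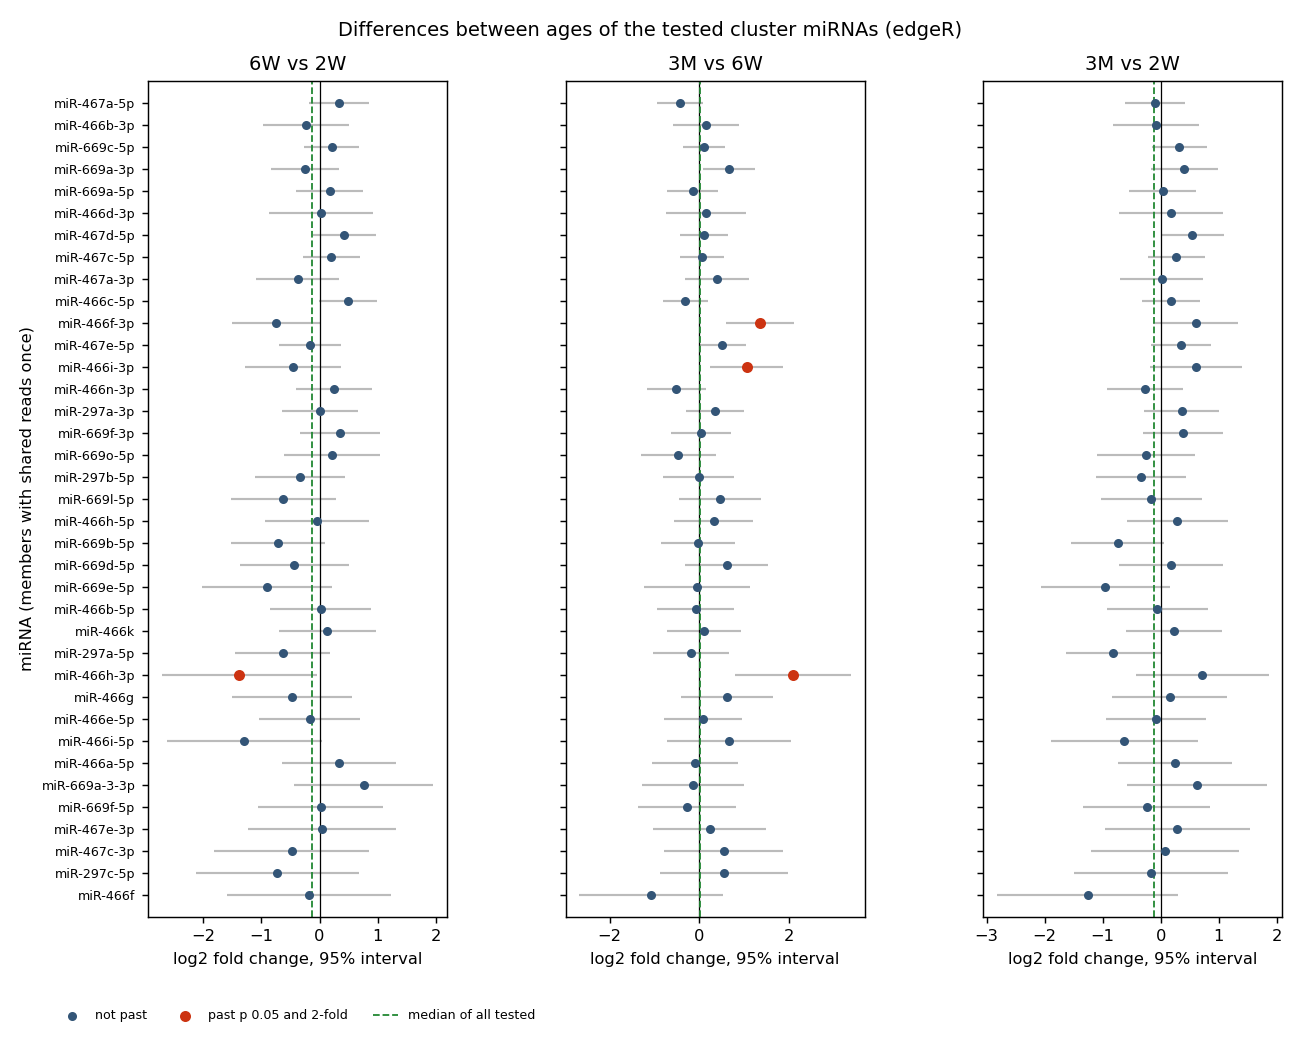
The 3 panels show the log2 fold change with its 95% interval for the 37 tested entries in each comparison, with members past the study threshold in red, a line at 0 and a dashed line at the median of all tested miRNAs. Red points are seen for miR-466h-3p at 6W against 2W and for miR-466f-3p, miR-466i-3p and miR-466h-3p at 3M against 6W, and most intervals cross 0.

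By family, the sums were ordered alike in every library except for miR-466 and miR-669. miR-467, dominated by miR-467a-5p, was at 767 to 1179 CPM over the 6 libraries, miR-466 at 197 to 396 CPM, miR-669 at 264 to 334 CPM and miR-297 at 14.6 to 21.5 CPM. The median log2 fold change at 3M against 6W was 0.15 over the 15 tested entries of miR-466, 0.23 over the 7 of miR-467, -0.02 over the 11 of miR-669 and 0.17 over the 4 of miR-297. The mean sums at 6W and 3M were 267 and 312 CPM for miR-466 and 1083 and 855 CPM for miR-467. They were 279 and 318 CPM for miR-669 and 15.6 and 17.8 CPM for miR-297. For miR-467 and miR-669 the sum and the median thus went opposite ways.

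The host gene was counted at a low level in every library. Sfmbt2, a Polycomb group protein with malignant brain tumour domains, was summed over 6 listed transcripts to 275 and 299 estimated counts at 2W, 358 and 383 at 6W, and 315 and 416 at 3M. This was 17.4 and 18.3 CPM at 2W, 17.4 and 16.9 CPM at 6W, and 18.9 and 18.6 CPM at 3M. The 3M libraries were above the other 4, by little. Per length, the summed FPKM was 2.42 to 3.02 in the 6 libraries.

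No difference of Sfmbt2 passed the test in edgeR or DESeq2. The log2 fold change was -0.06 at 6W against 2W (95% interval -0.35 to 0.23, edgeR adjusted p of 0.813). It was 0.13 at 3M against 6W (95% interval -0.15 to 0.42, edgeR adjusted p of 0.639) and 0.07 at 3M against 2W (95% interval -0.21 to 0.36, edgeR adjusted p of 0.743). Over all 14805 gene sums, edgeR gave an adjusted p under 0.05 to 1.74%, 0.00675% and 11.0% in these comparisons. DESeq2 gave an adjusted p under 0.05 to 6.00%, 2.30% and 14.9%, and an unadjusted p under 0.05 in edgeR was found for 18.9%, 14.3% and 27.3%. In mean level Sfmbt2 was lowest at 6W, with 17.1 ± 0.32 CPM against 17.9 ± 0.67 CPM at 2W and 18.8 ± 0.22 CPM at 3M (SD, n = 2), whereas miR-467a-5p was highest at 6W, and neither order passed the test. The mRNA counts come from other libraries than the miRNA counts, and mature mRNA does not measure the intron that holds the hairpins.

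**Figure D5:**
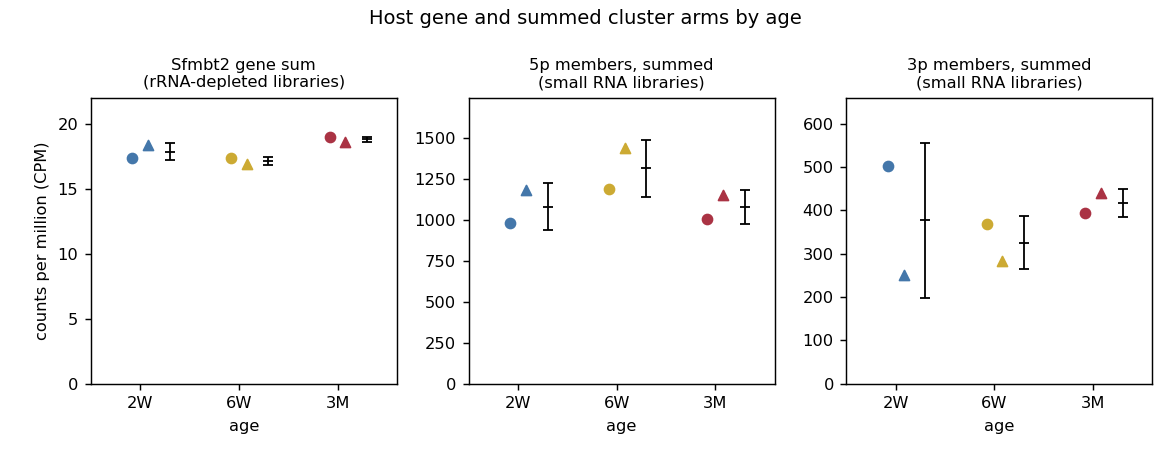
The panels show, from left to right, the Sfmbt2 gene sum, the summed 5p entries and the summed 3p entries in CPM for each library (circle, replicate 1; triangle, replicate 2), with the mean and SD of the 2 libraries of an age in black. Sfmbt2 lies between 16.9 and 18.9 CPM throughout, and the 3p sum spans 250 to 503 CPM at 2W alone.

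One circRNA, a circle closed by back-splicing, was listed inside Sfmbt2, at 10437947 to 10445782 on the plus strand of chromosome 2, before the first precursor of the cluster. It had 0 and 0 junction counts at 2W, 2 and 2 at 6W, and 0 and 2 at 3M. All these values lie at or under 3 counts, so that no fold change is given. The adjusted p was 0.885, 0.991 and 0.886 in the comparisons in the order above, where edgeR gave an adjusted p under 0.05 to 0.00%, 0.288% and 0.0360% of 2779 tested circRNAs.

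The lists of genes below are read against these shares of all gene sums, which at 3M against 2W were 11.0% called by edgeR, 14.9% called by DESeq2 and 27.3% at an unadjusted p under 0.05. Of 13 genes for Drosha, Dgcr8, the exporter Xpo5, Dicer1 and its partners, Argonautes and their Tnrc6 partners, edgeR called 0, 0 and 1 at an adjusted p under 0.05 in the comparisons, with 5, 2 and 2 at an unadjusted p under 0.05, and DESeq2 called 0, 0 and 2. The 1 gene called is 7.69% of the list. It was Ago4, an Argonaute, which was at 2.53 and 3.80 CPM at 2W, 5.28 and 4.94 CPM at 6W, and 9.14 and 6.72 CPM at 3M. It rose by 1.32 on the log2 scale at 3M against 2W (SE 0.28, edgeR adjusted p of 0.0321).

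Of 14 Polycomb genes, taken as known partners of Sfmbt2 (such as Yy1 and L3mbtl2) or core subunits, edgeR called 0, 0 and 1, with 1, 1 and 3 at an unadjusted p under 0.05, and DESeq2 called 0, 0 and 3. At 3M against 2W the 1 gene called is 7.14% of the list, against 11.0% of all gene sums. This gene, Ezh2, the methyltransferase of histone H3 lysine 27, was at 266 and 238 CPM at 2W, 217 and 222 CPM at 6W, and 183 and 155 CPM at 3M. It fell by 0.58 on the log2 scale at 3M against 2W (SE 0.13, edgeR adjusted p of 0.0342). Sfmbt2 also stands in a list of 5 genes imprinted through maternal histone methylation, of which edgeR called 0 in each comparison, with 0 at an unadjusted p under 0.05 and 0 by DESeq2. The most abundant of the other 4 were Jade1, at 94.7 to 122 CPM, and Smoc1, at 30.3 to 44.0 CPM.

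Of 11 genes around Sfmbt2 on chromosome 2, edgeR called 0, 0 and 1, with 2, 2 and 3 at an unadjusted p under 0.05, and DESeq2 called 2, 1 and 1. At 3M against 2W the 1 gene called is 9.09% of the list, against 11.0% of all gene sums. This gene, Pfkfb3, a regulator of glycolysis, rose at 3M against 2W by 0.53 on the log2 scale (SE 0.10, edgeR adjusted p of 0.0241), from 84.5 and 80.1 CPM to 118 and 119 CPM.

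Markers of the cell types of the thymus were checked in the mRNA libraries. At 3M against 2W, edgeR called at an adjusted p under 0.05 5 of 8 markers of double positive thymocytes, all lower, and 4 of 5 of adipocytes and 3 of 5 of myeloid cells, all higher. Fibroblast markers were called in both directions (2 higher and 2 lower of 6), as were those of cortical epithelium (2 higher and 1 lower of 5). No marker was called for medullary epithelium (4 of 5 at an unadjusted p under 0.05, 2 by DESeq2), endothelium (2 of 5, 1 by DESeq2), B cells (0 of 5, 0 by DESeq2), red blood cells (0 of 5, 0 by DESeq2) or skeletal muscle (2 of 2 tested, 1 by DESeq2). At 6W against 2W, 2 of 5 adipocyte markers and 1 of 5 myeloid markers were called by edgeR, all higher, which is 3 of the 51 markers tested, with 21 at an unadjusted p under 0.05 and 13 called by DESeq2. Of all gene sums, 1.74%, 18.9% and 6.00% met these rules. At 3M against 6W edgeR called 0 of the 51, with 21 at an unadjusted p under 0.05 and 8 called by DESeq2, against 0.00675%, 14.3% and 2.30% of all gene sums. The part of these differences in the levels of the cluster was not tested.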

How the data were processed

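The authors isolated total RNA with TRIzol. They deposited, for miRNAs, whole tag counts and TPM, for mRNAs, estimated counts per transcript and FPKM, and for circRNAs, junction counts and RPM. The submitters' processing notes name Bowtie 0.12.2 and mm8, but 98.8% of 6010 circRNAs lie inside their source gene in GRCm38.p6, whose coordinates are used. No miRNA count equals 1.

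Members and gene lists were chosen with earlier results of these data known. Members were matched to RefSeq precursors by name. Named are the 10 most abundant members, those past the study threshold, Sfmbt2, its circRNA and, of each list, the genes called or the 2 most abundant, with marker lists given as counts. Estimated counts were summed by symbol, ignoring case, and rounded. The 6 libraries of a class were fitted together by age in edgeR 4.0.16 (R 4.3.3, TMM, filterByExpr, for circRNAs at least 6 counts), with Benjamini-Hochberg adjustment over the table. Scripts were tested on simulated data. With 2 against 2 libraries an exact permutation test cannot go below p = 0.333. The RNA classes were tested separately, the lncRNA table was not used, and alternatives included DESeq2 1.42.0.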

Additional observations from a re-analysis of the deposited data

How the results depend on the processing

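With 2 libraries per age, every call rests on few values, and members of low counts, such as miR-466h-3p with 7 to 47 counts, are the least certain. At 6W against 2W, 1 member was past the study threshold. It was 3 without a filter, 0 with only the 4 libraries compared and 0 with DESeq2, and between 0 and 4 when a library was left out. At 3M against 6W the 3 calls were between 2 and 4 when a library was left out. At 3M against 2W the count of 0 was 1 without a filter and between 0 and 5 when a library was left out. At an adjusted p under 0.05, 0 members were called in each comparison. Without a filter these counts were 3 at 3M against 6W and 1 at 3M against 2W, and at 3M against 6W they were 1 with only the 4 libraries compared and 1 with DESeq2. Leaving out a library gave 0 to 1 at 6W against 2W, 0 to 2 at 3M against 6W and 0 to 6 at 3M against 2W. The causes were not tested.

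The log2 fold change of Sfmbt2 at 6W against 2W, -0.06, became 0.0058 with total counts as the only scaling and lay between -0.10 and 0.00459 when a library was left out. At 3M against 6W and 3M against 2W its ranges were 0.09 to 0.15 and 0.03 to 0.12. miR-466i-3p at 6W against 2W changed from -0.45 to between -0.88 and 0.26 when a library was left out, the latter without 2W replicate 1. The share of the cluster, as listed a mean of 0.308% at 2W, 0.329% at 6W and 0.304% at 3M, was 0.274%, 0.299% and 0.268% with members of the same counts taken once, and 0.147%, 0.163% and 0.151% with shared reads taken once, a setting chosen after seeing the data. With the total implied by TPM it was 0.282%, 0.302% and 0.276%.

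Replicate numbers were not used to pair the libraries. The correlations of the deviations of same-numbered small RNA libraries were 0.22 (2W and 6W), -0.15 (2W and 3M) and -0.07 (6W and 3M). Those of the mRNA libraries were -0.06, -0.18 and 0.35. Signs were mixed, and these values cannot exclude that some same-numbered libraries were handled together. With a replicate block, 1, 3 and 0 members were past the threshold, but at 6W against 2W the member was miR-466i-5p (-1.27) and not miR-466h-3p, and Sfmbt2 had -0.06, 0.13 and 0.07.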

Other observations

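The miRNA table also lists 8 identifiers of these families without a species prefix, which were outside the members. miR-466-y had the most counts, with 225 and 104 in the 2W libraries, 209 and 110 in those of 6W and 246 and 187 in those of 3M, and shared a run of 18 bases with 6 members, among them miR-466b-3p. It was counted more often in replicate 1 at every age, in counts not scaled for the size of the libraries. This is like most 3p members at 2W and 6W, but unlike miR-466b-3p at 3M (143 and 165 CPM). miR-466-x had 296 counts over the 6 libraries, miR-669-x 217 and miR-467-x 199, and the other 4 had 7 to 44 each.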
